A study of Mus musculus with 3 samples.

Results

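Chymotrypsins, elastases and carboxypeptidases are the protein-digesting enzymes that, beside trypsin, make up most of the protease load of pancreatic juice. The 8 genes described here are those for 3 chymotrypsin-type enzymes (Ctrb1, Ctrl and Ctrc), 3 elastases (Cela1, Cela2a and Cela3b) and 2 carboxypeptidases (Cpa1 and Cpb1). They were chosen by symbol as the chymotrypsin, elastase and carboxypeptidase genes of the exocrine pancreas, and are 8 of the 31053 genes in the count tables. Acinar cells make these enzymes as inactive zymogens, pack them into granules and release them into the gut lumen, where trypsin cuts off their activation peptides. Chymotrypsins cut after large hydrophobic residues and elastases after small ones, while carboxypeptidases trim residues from the carboxyl end, Cpa1 taking aliphatic and aromatic residues and Cpb1 basic ones. Their transcription in acinar cells depends on PTF1, a complex of PTF1A, an E protein and RBPJL that binds an E-box paired with a TC-box, and loss of these transcripts is a usual sign that acinar identity has been lost.

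The cells came from 3 mouse pancreatic tumours, 1 library each, which the labels do not divide into groups. Donor mice of the genotype Msi2-Myc; R26-LSL-tdTomato carried a tamoxifen-dependent Cre driven by Musashi2 (Msi2), the MycT58A allele and a Cre-dependent red reporter. At 5 weeks after tamoxifen their tdTomato-positive epithelial cells were placed into the pancreas of immunodeficient NSG mice, and at end stage EpCAM-positive cells of the tumours were sorted for droplet-based RNA sequencing from the 3' end, in which unique molecular identifiers (UMIs) count transcripts. NSG mice keep a pancreas of their own, the labels name no tdTomato sort of the tumours, and the tables hold 0 rows named for tdTomato, so donor cells and EpCAM-positive host cells cannot be told apart by the reporter.

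After filtering there were 1431, 253 and 2804 cells in tumours 1, 2 and 3, with a median of 1621, 1333 and 1606 UMIs per cell. Cells were sorted by marker genes outside the family: 294, 36 and 1092 cells were acinar-gated (Clps and Pnliprp1, colipase and a pancreatic lipase-related protein), 620, 132 and 355 were ductal-gated (Tff1 and Lgals4), 2, 2 and 52 were squamous-gated (Krt5 and Krt14), 255, 35 and 838 held both acinar and ductal markers with neither pair dominant, and 260, 48 and 467 fell in no gate. A cell entered a gate with 2 or more UMIs of a pair if that pair held 80% or more of the UMIs of the 6 gate genes. The 6 further acinar markers, among them Ptf1a and Cel, summed to 3682, 1019 and 4689 UMIs per 1000000 (CPM) in acinar-gated cells of tumours 1 to 3, against 106, 148 and 114 CPM in ductal-gated cells. Those of 6 further ductal markers, such as Krt19 and Sox9, ran the other way, at 1673 to 2570 CPM in acinar-gated cells against 6983 to 9609 CPM in ductal-gated cells. Of the other lineages in acinar-gated cells, 5 endocrine markers were all at 0, 5 fibroblast markers summed to at most 0.309 CPM and 5 mast cell markers to 29.9 to 51.3 CPM with Cpa3, Cma1 and Tpsb2 at 0. Every cell barcode of each library also had 10 or more UMIs in both others, so a barcode counted as a cell only where 60% or more of its UMIs lay. Since free RNA reaches every droplet, barcodes with 10 to 100 UMIs of the same library are given beside the cells as its level.

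In the GENCODE annotation of mm10 (GRCm38) the 8 genes lie on 5 chromosomes. Ctrb1 (chr8:111686519-111691010) and Ctrl (chr8:105932003-105933862) are on chromosome 8, and Ctrc (chr4:141814962-141846359), Cela2a (chr4:141814962-141826160) and Cela3b (chr4:137420999-137430540) on chromosome 4. Cela1 (chr15:100674421-100687921), Cpa1 (chr6:30639218-30645363) and Cpb1 (chr3:20248264-20275733) each lie apart from the rest. All are on the minus strand except Cpa1. Ctrc and Cela2a overlap, as the annotation extends 1 Ctrc transcript through Cela2a.

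The stretches before the transcription starts of the genes are shown because the PTF1 binding pair is the known control element of this family. For 7 of the 8 genes RefSeq (build GRCm38.p6) gave a promoter, and Ctrc had no entry. A pair was an E-box CANNTG followed by TTTCCC on the same strand, on either strand, with first bases 9 to 11 or 19 to 22 apart, a search set after the promoters had been read. Among windows of 300 bases, 250 before and 50 after the start, it was present in Ctrb1, Cela1 and Cpa1, which are shown 5′ to 3′ on the gene's strand with the pair in capitals.
Ctrb1 (chr8:111691011-111691260, minus strand): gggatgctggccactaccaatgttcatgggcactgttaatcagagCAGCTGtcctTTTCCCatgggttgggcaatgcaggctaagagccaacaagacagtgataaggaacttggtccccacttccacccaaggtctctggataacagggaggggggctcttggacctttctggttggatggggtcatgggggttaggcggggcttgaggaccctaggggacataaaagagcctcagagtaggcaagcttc
Cela1 (chr15:100687921-100688170, minus strand): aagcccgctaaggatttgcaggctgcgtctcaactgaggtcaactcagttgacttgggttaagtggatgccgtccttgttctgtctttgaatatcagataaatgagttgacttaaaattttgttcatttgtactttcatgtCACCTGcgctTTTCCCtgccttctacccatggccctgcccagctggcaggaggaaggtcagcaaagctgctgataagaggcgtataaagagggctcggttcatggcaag
Cpa1 (chr6:30639168-30639225, plus strand): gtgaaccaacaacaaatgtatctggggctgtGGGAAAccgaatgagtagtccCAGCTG
For Cpa1 only the last 50 bases before the start and the 8 after it are shown, and the TC-box reads on the opposite strand as GGGAAA. In Ctrb1 the E-box began 205 bases before the start and in Cela1 109 bases before it, with the TC-box 10 bases further on in both. The pair was present in 269 of 32851 promoter windows of the same length (0.819%), so that 3 of 7 is a description of these genes and not a count of binding sites. Single words were common: CANNTG was in 72.3% and TTTCCC in 25.2% of all windows. The remaining 4 promoters held E-boxes but no such pair, and a TTTCCC outside a pair was present in Cela2a. Ctrb1 and Cela1 thus share the arrangement at the same spacing, while the size of their difference between the gates was not alike, as described below.

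The chymotrypsin B gene Ctrb1 supplied most of the protease transcripts. It had 11996, 4914 and 10905 CPM in acinar-gated cells of tumours 1, 2 and 3, against 392, 403 and 372 CPM in ductal-gated cells. The groups did not overlap, and the ductal-gated values lay within a narrow band. Barcodes holding both marker pairs had 2960, 2106 and 5259 CPM, ungated cells 1405, 1300 and 3373 CPM and free RNA 2656, 2022 and 3626 CPM. Within every tumour the order was acinar-gated, both pairs, free RNA, ungated and ductal-gated, but over the 3 tumours each neighbour in that order overlapped the next except ductal-gated cells, which lay below these others. The 52 squamous-gated cells of tumour 3 were lower still, at 224 CPM on 45 UMIs (95% Poisson interval 163 to 299, against 340 to 406 in ductal-gated cells of that tumour), and the squamous gate of tumours 1 and 2 held only 2 cells each. Ctrb1 was detected in 100%, 100% and 99.9% of acinar-gated cells, against 26.1%, 21.2% and 47.6% of ductal-gated cells, at median depths of 1710, 1328 and 1663 UMIs against 1684, 1291 and 2120 UMIs. In the fit over all genes Ctrb1 was 22.4-fold higher in acinar-gated cells (log2 difference 4.49 ± 0.48 SE, edgeR quasi-likelihood test, Benjamini-Hochberg adjusted p = 0.000376, 3 tumours).

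Ctrl, a chymotrypsin-like protease with its own gene close to Psmb10 on chromosome 8, was far less abundant in UMIs. Its level was 85.5, 14.7 and 107 CPM in acinar-gated cells, against 2.63, 13.4 and 5.15 CPM in ductal-gated cells. The groups did not overlap, but in tumour 2 the acinar value rested on 2 UMIs in 1 cell and the ductal value on 3. The fitted difference was 18.5-fold (log2 4.21 ± 0.35 SE, edgeR adjusted p = 6.83e-21). Psmb10, an immunoproteasome subunit whose gene begins upstream of Ctrl on the same strand with 1873 bases between them, was 5.40-fold higher in acinar-gated cells (315 ± 122 against 63.9 ± 17.5 CPM, SD, n = 3 tumours; edgeR adjusted p = 0.000401). How far reads from one gene reach into its neighbour was not tested.

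Ctrc, chymotrypsin C, in humans the enzyme that controls trypsinogen activation and breakdown, was nearly absent from the cells that held the other 7. Acinar-gated cells of tumours 1 and 2 had 0 UMIs, which allows up to 4.50 and 22.0 CPM at a floor of 3 counts, and those of tumour 3 had 17.3 CPM. Ductal-gated cells had 1.97, 4.48 and 0.736 CPM on 3, 1 and 1 UMIs. Free RNA held Ctrc at 17.7, 19.3 and 19.4 CPM, so in tumour 1 the acinar-gated limit lay below the free RNA of the same library. In tumour 3 the acinar-gated level came to 56 UMIs in 20 of 1092 cells, 35 of them in 1 cell, and was 6.49 CPM without that cell. Barcodes with both marker pairs held 7, 0 and 29 Ctrc UMIs, never more than 1 in a barcode. Ctrc did not pass the low-count filter and so has no test with that filter at the gates used. It passed in 4 alternatives (a gate minimum of 3 UMIs, a purity of 95%, no filter on low counts, and without tumour 2). In each it was called higher in acinar-gated cells, at log2 differences of 2.48 to 2.97 (edgeR adjusted p = 0.000599 to 0.00461). At the gates used, however, acinar-gated cells were above ductal-gated cells in tumour 3 only and below them in tumours 1 and 2. No Ctrc test was available without the cell that held 35 UMIs. The annotations differ on this gene: GENCODE calls it protein coding, while RefSeq lists it as a transcribed pseudogene of the reference strain C57BL/6J; NSG mice are of NOD background. One Ctrc transcript marked for nonsense-mediated decay shares 305 exonic bases with Cela2a on the same strand. The annotated spans of both genes end at the same 3' base, on the side that the sequencing reads. How reads of the shared stretch were counted was not tested, which limits the levels of Cela2a as well as those of Ctrc.

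**Figure D1:**
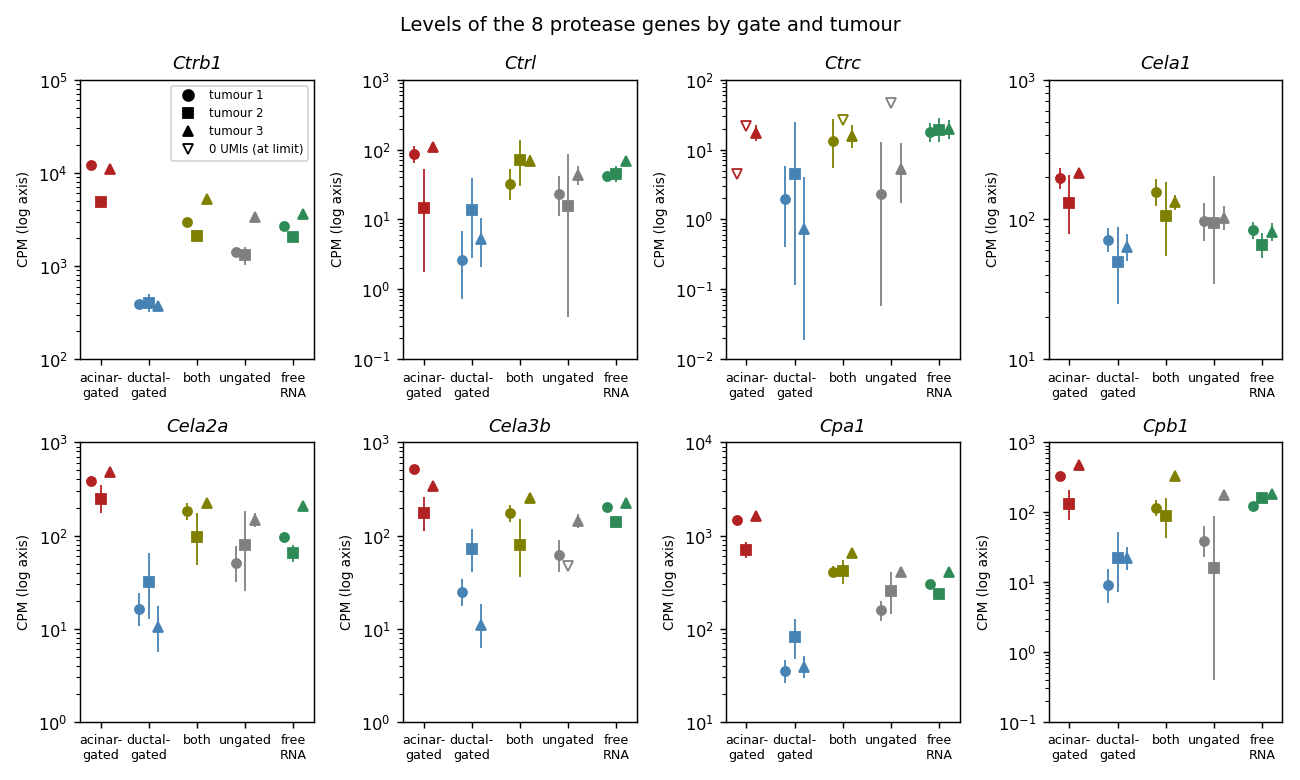
Level of each of the 8 genes in CPM on a log axis, by gate and for free RNA, with tumours 1 to 3 as separate symbols and bars for exact Poisson 95% intervals. Open triangles mark 0 UMIs and stand at the limit that a count of 0 allows. Ctrb1 sits between 4914 and 11996 CPM in acinar-gated cells and between 372 and 403 CPM in ductal-gated cells, while the Cela1 values of the 2 gates lie closer together.

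The 3 elastases did not follow one pattern. Cela2a, a digestive elastase of acinar cells, had 389, 249 and 482 CPM in acinar-gated cells, against 16.4, 31.3 and 10.3 CPM in ductal-gated cells. Cela3b, an elastase family member with weak elastin-cutting activity in humans, had 515, 176 and 337 CPM in acinar-gated cells, against 24.9, 71.6 and 11.0 CPM in ductal-gated cells. Both genes were higher in every acinar-gated sum than in any ductal-gated one, and tumour 2 had the lowest acinar and the highest ductal value of each. Cela2a was 27.2-fold higher (log2 4.77 ± 0.33 SE, edgeR adjusted p = 8.25e-10) and Cela3b 16.6-fold higher (log2 4.05 ± 0.74 SE, edgeR adjusted p = 0.00573). The Cela3b call was lost without tumour 1 (adjusted p = 0.184, log2 3.62) and when only acinar-gated and ductal-gated sums entered the fit (adjusted p = 0.0558, log2 4.11).

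Cela1 was the exception. It encodes the classical pancreatic elastase of rodents, whose human counterpart is silent in the pancreas. It had 197, 132 and 214 CPM in acinar-gated cells, against 71.5, 49.2 and 63.3 CPM in ductal-gated cells. The gates did not overlap, but the fitted difference was 3.06-fold (log2 1.61 ± 0.18 SE, edgeR adjusted p = 2.05e-14), against 16.6-fold to 32.4-fold for the other 6 genes that passed the low-count filter. In ductal-gated cells Cela1 stood at 0.854, 0.750 and 0.777 of its free RNA level in tumours 1, 2 and 3, where Ctrb1 stood at 0.148, 0.199 and 0.103. Ductal-gated cells had 183, 122 and 170 Cela1 UMIs per 1000 Ctrb1 UMIs, against 31.5, 32.5 and 22.5 in free RNA. What part free RNA has in the Cela1 level of ductal-gated cells was not tested. Ductal-gated cells with 0 UMIs of the other 7 genes still held Cela1 at 75.7 CPM (95% Poisson interval 58.6 to 96.4, 440 cells), 42.3 CPM (17.0 to 87.2, 101 cells) and 87.4 CPM (60.5 to 122, 165 cells). Those with 1 or more such UMIs held it at 65.9, 69.1 and 53.6 CPM. In ductal-gated cells the intervals of the 2 classes overlapped in every tumour. In ungated cells Cela1 was higher with 1 or more such UMIs in every tumour, which in ductal-gated cells held for tumour 2 only. The ungated levels were 143, 131 and 111 CPM with 1 or more, against 47.8, 60.1 and 54.1 CPM with 0. Their intervals were apart in tumour 1 only. The 52 squamous-gated cells of tumour 3 had 14.9 CPM on 3 UMIs, a count at the floor.

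**Figure D2:**
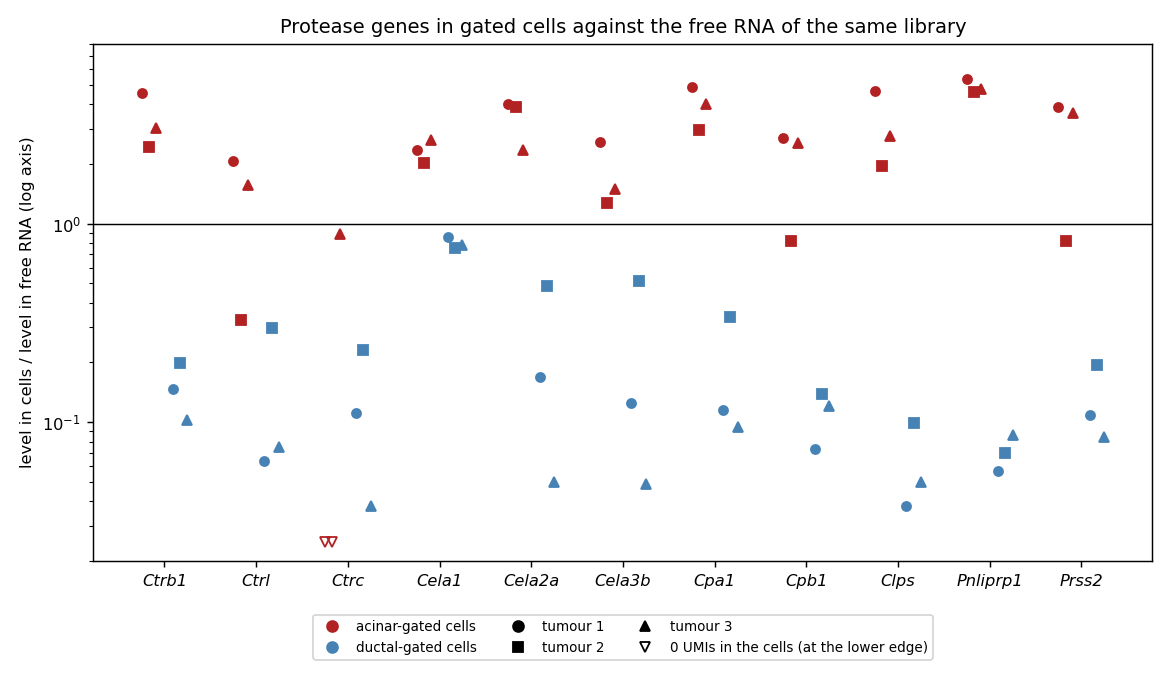
Level in acinar-gated and ductal-gated cells divided by the level in free RNA of the same library, on a log axis, for the 8 genes, the gate genes Clps and Pnliprp1 and the trypsinogen Prss2, with tumours as separate symbols. The line marks equal levels, and open triangles mark 0 UMIs. Cela1 in ductal-gated cells lies between 0.750 and 0.854, while Ctrb1 lies between 0.103 and 0.199.

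Both carboxypeptidases were higher in acinar-gated cells. Cpa1 had 1463, 704 and 1641 CPM in acinar-gated cells, against 34.8, 80.6 and 39.0 CPM in ductal-gated cells. Cpb1 had 335, 132 and 468 CPM in acinar-gated cells, against 9.19, 22.4 and 22.1 CPM in ductal-gated cells. The gates did not overlap for either gene. Cpa1 was 32.4-fold higher (log2 5.02 ± 0.49 SE, edgeR adjusted p = 0.000221), with the highest fitted difference of the family, and Cpb1 24.2-fold higher (log2 4.60 ± 0.31 SE, edgeR adjusted p = 2.08e-11). Cpa1 was detected in 74.1%, 75% and 78.8% of acinar-gated cells, against 6.77%, 6.82% and 9.86% of ductal-gated cells. For Cpb1 the shares were 27.2%, 22.2% and 35.7% of acinar-gated cells, against 1.94%, 3.79% and 7.61% of ductal-gated cells. In tumour 2 the acinar-gated level of Cpb1 was 0.818 of that in free RNA, and 10 of its 18 UMIs were in 1 cell.

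Of the 8 genes, 7 passed the low-count filter and all 7 were called higher in acinar-gated cells, where 15.7% of the 8722 genes tested outside the gate genes were called higher. The median log2 difference of these 7 was 4.49, against 0.01 over all genes tested, and 0.837% of all genes had a difference above 4. The gates were set by digestive lipase cofactor and lipase genes, so this comparison is between cells chosen for exocrine RNA and is a description of how the proteases go with it. Whether fewer cells of a type or less RNA per cell lies behind a low sum cannot be told apart in a sum, and the values per cell are given below. Tumour 2's low acinar-gated sums went with its deepest cell: 1 cell of 40498 UMIs held 29.7% of the gate's UMIs and only 51 of the family, and without it the summed level was 8461 CPM, against 6322 CPM with it. With every cell thinned to 1000 UMIs the summed level was 15687, 11306 and 13971 CPM in acinar-gated cells, against 660, 644 and 744 CPM in ductal-gated cells.

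Trypsinogens, the proteases that act above this family in the activation cascade, were also higher, 6 of 6, from Try10 (18.2-fold) to Prss3 (66.1-fold), with Prss2 at 27.1-fold (1992 ± 1333 against 86.7 ± 29.8 CPM, SD, n = 3 tumours; edgeR adjusted p = 0.00177). The Prss2 call was lost without tumour 1 (log2 4.14, adjusted p = 0.120), without tumour 3 (log2 4.02, adjusted p = 0.106) and when only acinar-gated and ductal-gated sums entered the fit (adjusted p = 0.0939). Try5 lost its call in the same 3 alternatives (adjusted p = 0.0932, 0.0540 and 0.0727) and Try4 without tumour 1 (adjusted p = 0.0894). Among lipases, amylases and other enzymes 5 of 7 were higher, with Cel, carboxyl ester lipase, at 42.0-fold. Amy1, a further one of the 5, lost its call in 4 of 17 alternatives, with a log2 difference of 3.44 over all 3 tumours and 1.27 without tumour 3, 3.67 without tumour 1 and 1.84 with DESeq2. Pnlip, the main pancreatic lipase, was not called (64.6 ± 90.1 against 26.7 ± 27.5 CPM, adjusted p = 0.0956), nor was Pla2g1b (adjusted p = 0.377). Without tumour 3 the Pnlip difference turned to a log2 value of -0.63. Of 12 further genes of the chymotrypsin, elastase and carboxypeptidase families 10 had a row in the tables and 3 could be tested. Cpn1, the catalytic subunit of plasma carboxypeptidase N, was 11.0-fold higher. Cpd and Cpe, which process prohormones and other secreted proteins, had log2 differences of -1.35 and -1.80 and were called lower.

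The inhibitor and receptor genes of zymogen secretion that could be tested were also higher. Spink1, the trypsin inhibitor packed in zymogen granules, was 21.1-fold higher (209 ± 73.0 against 10.5 ± 2.25 CPM) and the serpin gene Serpini2 22.3-fold higher, the 2 of 5 activator and inhibitor genes that could be tested. Cckar, the receptor for the secretagogue cholecystokinin, was 56.8-fold higher (132 ± 24.3 against 4.16 ± 4.18 CPM, SD, n = 3 tumours; edgeR adjusted p = 1.29e-26) and was the 1 of 3 receptors tested. Of 8 granule genes 4 were higher, all for granule content or membrane proteins (Gp2, Zg16, Sycn and Cuzd1, 8.82-fold to 25.2-fold). The trafficking genes Rab3d, Rab27b and Vamp8 were called lower, with log2 differences of -0.75, -1.88 and -0.81, and Stxbp2 was not called. The Rab3d call (edgeR adjusted p = 0.0457) was lost in 8 of 16 alternatives, among them those without tumour 2 (log2 -0.59) and without tumour 3 (log2 -1.22), and Zg16 lost its call with DESeq2 (adjusted p = 0.0574). Among 10 transcription factors 5 were higher: Ptf1a 24.7-fold (51.8 ± 22.1 against 1.61 ± 1.41 CPM), Rbpjl 29.1-fold, Nr5a2 11.8-fold, Bhlha15 5.17-fold and Xbp1 1.93-fold. The general PTF1 partners Rbpj, Tcf3 and Tcf12 were not called, nor were Gata4 and Foxp4.

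**Figure D3:**
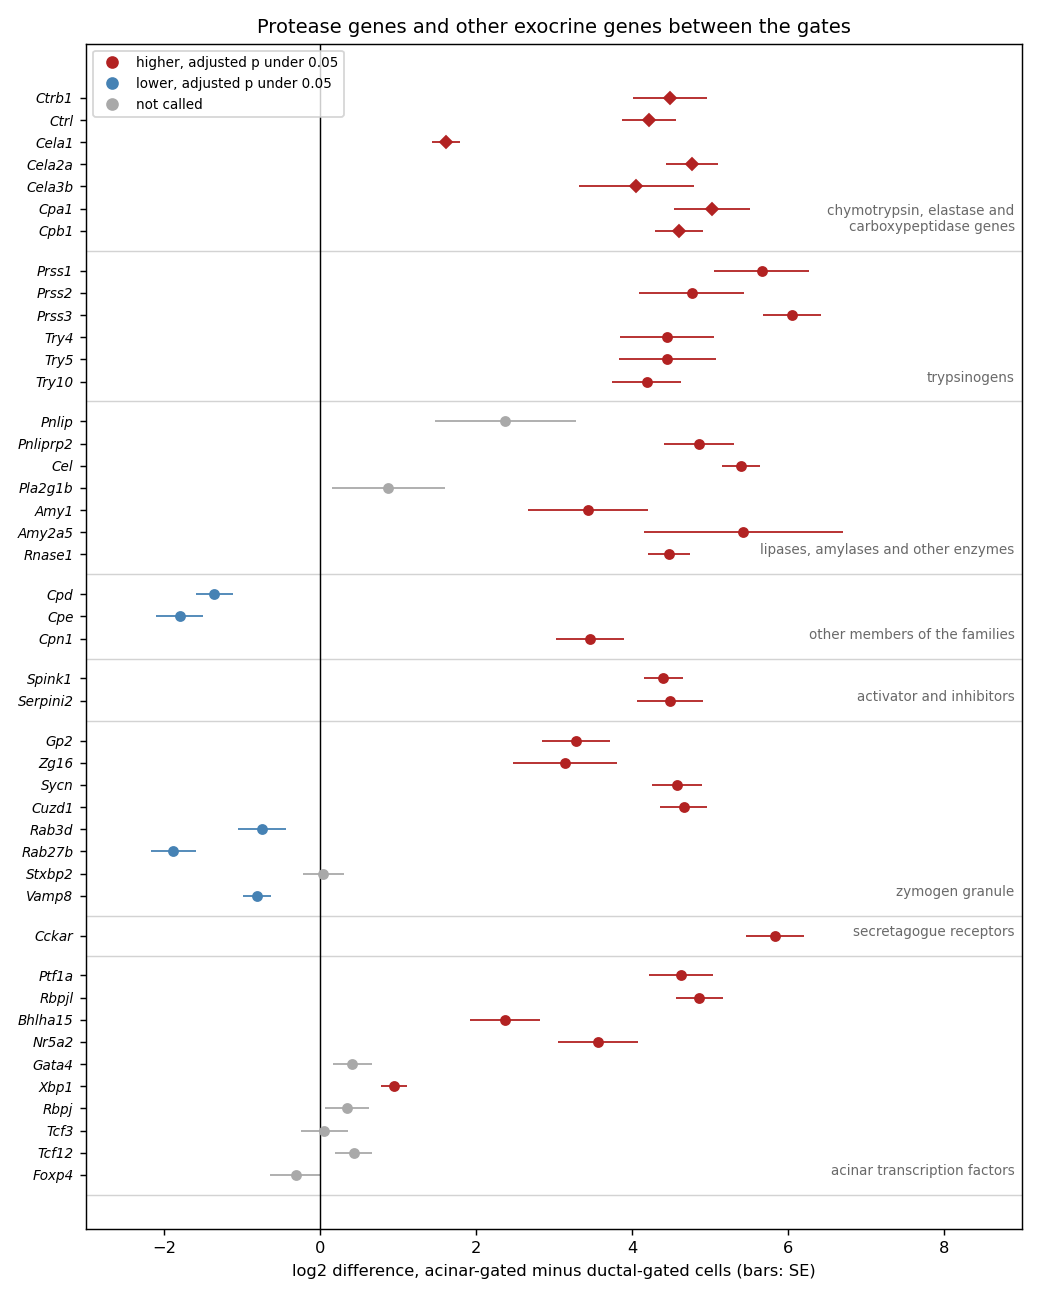
Fitted log2 difference between acinar-gated and ductal-gated cells, with bars for the standard error, for 7 of the 8 genes (diamonds) and the genes of 7 other exocrine lists that passed the low-count filter (circles). Red is called higher, blue called lower and grey not called at an adjusted p of 0.05. Cela1, at 1.61, lies apart from the other diamonds, which lie between 4.05 and 5.02.

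Over the 13 sums of a tumour and gate, the gene with the level most like the summed family was Reg3a, a secreted lectin of the exocrine pancreas (Pearson r = 0.970 of log2 CPM plus 1, among 2736 genes with a mean of 50 CPM or more), followed by Cel (0.962), Reg2 (0.961), Spink1 (0.960), Prss2 (0.958), Try5 (0.954), Tmem97 (0.954) and Rnase1 (0.953). All of these but Tmem97, a membrane protein of the endoplasmic reticulum, encode secreted proteins. Within the family, Ctrb1 (0.990), Cpa1 (0.984) and Cela2a (0.980) were closest to the sum of the others, Cpb1 (0.880), Ctrl (0.876), Cela1 (0.871) and Cela3b (0.703) less so, and Ctrc (0.119) least. These sums share libraries and tumours, so the coefficients describe these 13 sums only.

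The make-up of the family in acinar-gated cells was set beside that in free RNA. Ctrb1 made up 80.1%, 77.7% and 77.0% of the family's UMIs in acinar-gated cells, against 75.4%, 73.4% and 75.2% in free RNA. Cpa1 was 9.77%, 11.1% and 11.6% in acinar-gated cells, against 8.58%, 8.63% and 8.51% in free RNA. Both genes were a larger part of the cells than of the free RNA in every tumour. Cela3b, at 3.44%, 2.78% and 2.38% in acinar-gated cells against 5.68%, 5.05% and 4.67% in free RNA, went the other way. So did Cpb1, with means of 2.54% in acinar-gated cells against 4.40% in free RNA, Ctrl with 0.520% against 1.41%, and Ctrc with 0.0407% against 0.535%. For these 6 genes the 3 tumours did not overlap between cells and free RNA. An exact two-sided permutation test, which took the groups as unpaired although they share libraries, gave p = 0.1 for each. That is the smallest that 3 against 3 unpaired values allow (16 such comparisons of shares were made, Benjamini-Hochberg adjusted p = 0.178 for each). Cela1 and Cela2a overlapped. The shares are parts of the same whole, so they are not separate results, and no such count was made over other genes. Cela1 made up 1.31%, 2.09% and 1.51% of the family's UMIs in acinar-gated cells, against 12.9%, 7.28% and 12.1% in ductal-gated cells. The same unpaired test gave an exact permutation p = 0.1, the smallest it allows (adjusted p = 0.178). Ctrb1 and Ctrc likewise did not overlap between these gates, with the same p-values. Their mean shares were 78.3% and 0.0407% in acinar-gated cells, against 67.1% and 0.386% in ductal-gated cells. The ductal-gated Ctrc shares rested on 3, 1 and 1 UMIs. The other genes overlapped. Each transcript is tagged once at its 3' end, so these shares were not divided by gene length.

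**Figure D4:**
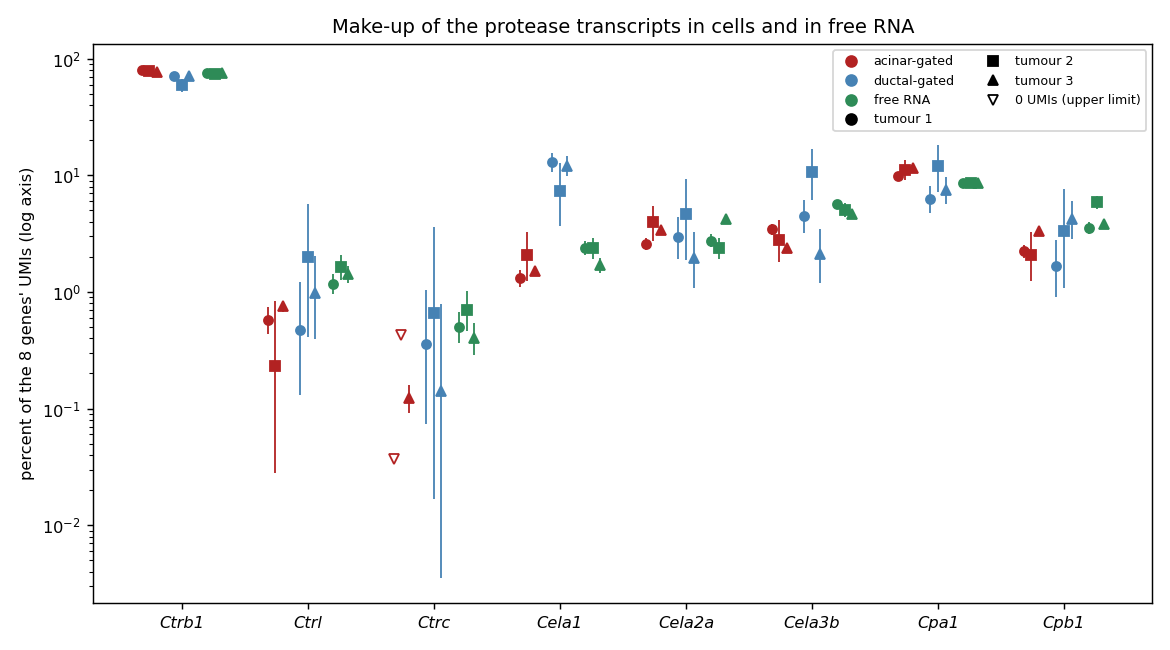
Share of the 8 genes' summed UMIs held by each gene, in percent on a log axis, in acinar-gated cells, ductal-gated cells and free RNA, with tumours as symbols and exact Clopper-Pearson 95% intervals as bars. Open triangles mark 0 UMIs and stand at the upper limit. Cela1 lies at 1.31% to 2.09% in acinar-gated cells, against 7.28% to 12.9% in ductal-gated cells.

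The family's RNA was spread over acinar-gated cells, with a long tail. In cells thinned to 1000 UMIs the median cell held 12, 8 and 10 UMIs of the 8 genes in acinar-gated cells of tumours 1, 2 and 3, against 0 in ductal-gated cells of each tumour. The interquartile range of acinar-gated cells was 7 to 20, 4.5 to 15.3 and 7 to 16 UMIs, and only 1, 0 and 3 cells had none. In ductal-gated cells 75.5%, 76.5% and 65.1% had none, and the highest held 13, 9 and 22 UMIs. The 10% of acinar-gated cells with most UMIs held 29.2%, 30.5% and 32.6% of the family's thinned UMIs. Across acinar-gated cells, thinned Ctrb1 and the sum of the other 7 genes had a Spearman rank correlation of 0.476, 0.589 and 0.408 within tumours 1, 2 and 3, given as a description of cells that share a library.

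Barcodes holding both marker pairs were set beside free RNA gene by gene. Their Ctrb1 level was 1.11, 1.04 and 1.45 times that of free RNA in tumours 1, 2 and 3. Cela1, at 1.61 to 1.88 times, Cpa1, at 1.35 to 1.74 times, and Cela2a, at 1.09 to 1.88 times, were also above free RNA in each tumour. Ctrc lay below it in each, at 0 to 0.813 times, while Ctrl (0.790 to 1.57), Cela3b (0.570 to 1.11) and Cpb1 (0.546 to 1.79) lay on both sides. The thinned medians of these barcodes were 4, 3 and 8 family UMIs, between the gates. Their median mitochondrial share was 0.456%, 0.407% and 0.293%, against 2.20%, 2.31% and 1.64% in acinar-gated cells, 3.32%, 3.61% and 4.60% in ductal-gated cells and 3.44%, 4.59% and 3.73% over free RNA. These barcodes are given as values and are neither side of a comparison of cell types. Their sums are among the 13 in the fit, where they share in the scaling and in the estimate of the spread. The correlations over 13 sums include them as well.

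**Figure D5:**
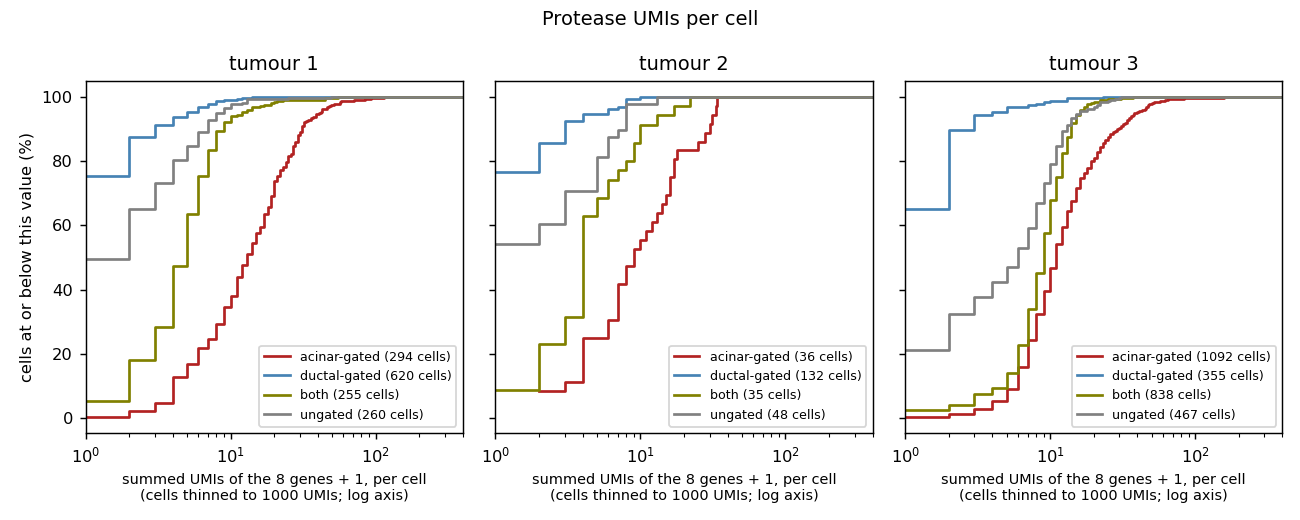
Cumulative share of cells, in percent, by the summed UMIs of the 8 genes plus 1 on a log axis, after thinning each cell to 1000 UMIs, in 1 panel per tumour and 1 line per gate. Acinar-gated cells lie to the right, with medians of 12, 8 and 10 UMIs, and ductal-gated cells to the left, with a median of 0 in each tumour.

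One acinar-gated cell of tumour 3 stood far out. It had 893 of its 3495 UMIs (25.6%) in the family, against 1.42% over the gate. It held 275 Ctrb1, 196 Cpb1, 144 Cela1, 98 Cpa1, 77 Ctrl, 36 Cela3b, 35 Ctrc and 32 Cela2a UMIs. That 1 cell among 1092 carried 62.5% of the gate's Ctrc, 22.2% of its Ctrl, 20.7% of its Cela1 and 12.9% of its Cpb1, but 0.778% of its Ctrb1. It also held 172 UMIs of Pnlip, 31.5% of the gate's total, and 102 of the amylase gene Amy1, with 0 UMIs of 36 mitosis genes and a mitochondrial share of 0.544%. The richest cells of tumours 1 and 2 held 11.8% and 3.84% of their UMIs in the family, and neither had a Ctrc or Ctrl UMI. Leaving out the richest cell of each tumour changed no call between acinar-gated and ductal-gated cells for the 7 genes tested.

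Whether protease RNA differed with mitosis transcripts was asked by splitting acinar-gated cells on 36 mitosis genes. Cells with 2 or more G2/M UMIs after thinning numbered 205 of 294 in tumour 1 and 652 of 1092 in tumour 3. This class thus held most acinar-gated cells and is not a set of cells in mitosis. Cells with 0 numbered 34 and 181, and cells with 1 such UMI were in neither class. Tumour 2 had only 1 cell with 0 and was left out. Ctrb1 had 11594 and 9405 CPM in G2/M-high cells, against 10920 and 15974 CPM in cells with 0. Cela2a had 308 and 415 CPM in G2/M-high cells, against 745 and 621 CPM in cells with 0, and Cela1 had 175 and 151 CPM against 268 and 486 CPM. For Ctrb1 the Poisson intervals overlapped in tumour 1 (11280 to 11915 CPM in G2/M-high cells, against 10326 to 11540 CPM in cells with 0) and were apart in tumour 3, where G2/M-high cells were lower. Cela1 and Cela2a were lower in G2/M-high cells of both tumours, with overlapping intervals for Cela1 in tumour 1. In the fit Cela1 (log2 -1.47 ± 0.26 SE, edgeR adjusted p = 0.00024), Ctrl (-1.39 ± 0.28, adjusted p = 0.00182) and Cela2a (-1.06 ± 0.22, adjusted p = 0.00199) were called lower, 3 of the 7 tested, where 1.63% of 5469 genes were called lower and 0.384% higher. The others had log2 differences of -0.40 to -0.73 and were not called. On simulated counts this fit recovered 19 of 100 genes changed 2-fold and 79 of 100 changed 4-fold. Differences of 2-fold or less would thus mostly be missed.

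These calls depended on the setting, and those of Ctrl and Cela1 also on the richest cells. Without the member-richest cell of each tumour, which in tumours 1 and 3 was a cell with 0 G2/M UMIs, Ctrl had a log2 difference of -0.21 (edgeR adjusted p = 0.877), Cela1 of -0.67 (adjusted p = 0.0898) and Cpb1 of 0.10 (adjusted p = 0.924). Cela2a stayed called at -0.81 (adjusted p = 0.00121), and Ctrb1 at -0.69 (adjusted p = 0.000399) and Cpa1 at -0.54 (adjusted p = 0.0325) were called. With all cells thinned to 1000 UMIs 0 of the 7 were called, at log2 differences of -1.28 for Cela1 (adjusted p = 0.118) and -1.20 for Cela2a (adjusted p = 0.318). With the tumours not blocked 0 were called as well, at -1.47 for Cela1 (adjusted p = 0.26) and -1.07 for Cela2a (adjusted p = 0.281). Thinned and without the block, the direction of these 2 genes was thus kept at a similar size while the calls were lost. The blocked fit has 1 residual degree of freedom. Ctrc entered this comparison only with no filter on low counts, where it was called lower (log2 -3.74, edgeR adjusted p = 2.76e-07). Both classes of tumour 1 had 0 Ctrc UMIs. In tumour 3 cells with 0 G2/M UMIs held 38 Ctrc UMIs, 35 of them in the richest cell, and G2/M-high cells held 12. That call thus rested on 1 cell, and Ctrc had no test without it. Among related lists, 4 of 5 lipases, amylases and other enzymes tested, 1 of 6 trypsinogens (Prss2) and 3 of 6 granule genes (Gp2, Zg16 and Sycn) were called lower, and the Pnlip and Amy1 differences changed sign without the richest cells.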

How the data were processed

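Single-cell RNA was measured in EpCAM-positive cells of 3 tumours, 1 library each, prepared with 10x Genomics 3' chemistry per the labels' protocols. The authors deposited raw UMI counts for each gene in each barcode; the headers name Cell Ranger 3.0.2, and the submitters' processing notes add mm10 and Seurat 3.1. The annotation used for counting was not given in the sources used. Each table lists 31053 genes and 6794880 barcodes, uncalled. Library totals were 11502184, 9737397 and 16521484 UMIs.

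Cells had 1000 or more UMIs, 500 or more genes, at most 20% mitochondrial UMIs and 60% or more of the barcode's UMIs in that library, which removed 122, 258 and 28 barcodes. The members, lists, gates and filters were chosen with earlier results of these data known. No doublets were removed; leaving out the 5% of cells with the highest scrublet score (scanpy 1.11.5, Python 3.11.15) was an alternative. UMIs were summed per tumour and gate (20 or more cells, 13 sums; 15 for G2/M classes) and fitted with edgeR 4.0.16 (R 4.3.3): filterByExpr, TMM, robust quasi-likelihood test, tumour as block, Benjamini-Hochberg adjustment at 0.05, tested on simulated data. Both gates of a tumour hold cells of 1 animal, which is the source of the pairing; the deviations of acinar-gated and ductal-gated sums from their group means correlated at 0.150, 0.040 and 0.291. DESeq2 1.42.0 was an alternative. Shares were compared by exact permutation (scipy 1.17.1) without the pairing by tumour. Free RNA was barcodes with 10 to 100 UMIs. Intervals are 95% and, like the floor of 3 counts, cover counting error only. Thinning used a fixed seed. Named genes were the 8 members, 7 lists of exocrine genes with every member given or counted except 1 gene not reported here, the 8 genes most like the summed members over the 13 sums, and their neighbours within 5000 bases (GENCODE annotation of mm10). Ctrb2, Cela2b and Spink3 had no row of that name. Labels do not say whether tumours came from separate donors, so p-values speak for these 3 tumours only. With tumour as block, the edgeR p-values rest on the spread left after tumour and gate, estimated over all sums in a fit. Those of the G2/M comparison at the settings used rest on tumours 1 and 3.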

Additional observations from a re-analysis of the deposited data

Results flagged for a closer look

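The barcodes left out by the home-library filter, which pass the other filters but have less than 60% of their UMIs in the library, also held the family's RNA. The 122 such barcodes of library 1 had 5519 CPM of the 8 genes summed, the 258 of library 2 had 5119 CPM and the 28 of library 3 had 3193 CPM, where the cells kept had 4349, 2675 and 8382 CPM and a count of 0 would have allowed 12.4, 5.03 and 48.1 CPM in the barcodes left out. These barcodes enter no comparison except in the alternative without the home-library filter. Their family RNA was above that of kept cells in libraries 1 and 2 and below it in library 3. Ctrb1 made up most of it, at 4437, 4107 and 2471 CPM, and Ctrc had 1, 1 and 0 UMIs. No outlier test was made, since the 3 tumours form 1 group of 3.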

How the results depend on the processing

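Of the 7 members tested between acinar-gated and ductal-gated cells, 6 kept their direction and call in all 17 alternatives, with log2 differences of 4.08 to 5.29 for Ctrb1 and 1.38 to 1.88 for Cela1; Cela3b lost its call in 2. Counts over all genes moved more. Genes called higher and lower numbered 1369 and 1541; they numbered 633 and 922 with cells thinned to 1000 UMIs, and 767 and 1013 without the replicate block, while DESeq2 called 861 higher. Leaving out 1 tumour gave 385 to 1526 higher and 607 to 1651 lower, the lowest without tumour 3; without tumour 1 they were 528 and 730. The summed level in ductal-gated cells was 584 CPM on average, 419 CPM at a purity of 95% and 701 CPM as a mean over cells. Signs turned for genes not called: Pnlip -0.63 without tumour 3 (3.04 without tumour 2), Stxbp2 -0.085 at 95% purity and -0.11 without tumour 1 (0.12 without tumour 3), Rbpj -0.13 without tumour 3 (0.63 without tumour 1), Tcf3 -0.037 without the home-library filter, and, thinned, Gata4 -0.039 and Foxp4 0.28.

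The G2/M comparison depended on the setting. It called 3 members lower, 6 with a gate minimum of 3 UMIs or without the home-library filter, and 0 thinned or without the block. Genes called higher and lower were 21 and 89; 113 and 230 without the home-library filter, 0 and 1 both when thinned and without the block, and 0 and 27 with DESeq2; the higher count was 35 at 3 or more G2/M UMIs and 13 with no filter on low counts. Signs turned without the richest cells for Cpb1 (0.10), Pnlip (0.0011), Amy1 (0.34), Ptf1a (-0.035) and Bhlha15 (0.16), and thinned for Try10 (0.49), Vamp8 (0.50), Ptf1a (-0.53), Rbpjl (-0.023) and Psmb10 (-0.27). They also turned for Try5 (0.0032 with DESeq2, 0.10 unfiltered, 0.032 without the block), Cckar (-0.034 at 3 UMIs), Rbpjl (-0.22), Rbpj (0.10) and Psmb10 (-0.10) without the home-library filter, Xbp1 (0.061) and Tcf12 (0.036) unfiltered, and Tcf12 (0.0042 at 3 or more G2/M UMIs). The cause was not tested. Leaving out tumour 1 or 3 leaves 1 pair with no residual degrees of freedom, so neither was run. The 90% home-library filter was not run, since 1, 0 and 2 cells reach it; 70% was used instead. This, thinning and leaving out the richest cells were chosen after seeing the data. With 3 tumours and 36 acinar-gated cells in tumour 2, precision for rare members is limited.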
